A study of Mus musculus with 8 samples.

Results

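The transcripts of 10 glutathione S-transferase genes were examined in fiber cells (FC) of the mouse lens after exposure to cigarette smoke (CS) and in untreated control (Ct) mice. They were the rows of the RNA table that carried the symbol of a chosen family gene, 10 of 35275 rows in all, namely Gsta4, Gstm1, Gstm5, Gstp1, Gsto1, Gstt1, Gstz1, Gstk1, Mgst1 and Mgst3. The rule that picks these rows uses the names of the genes alone. Of these 10 genes, 9 reached a mean of 1.0 FPKM in at least 1 group and were compared between groups, and Gstt1 did not. FPKM counts fragments per unit of gene length and of library size, so levels of different genes may be set side by side.

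Both groups were C57BL/6 mice by the labels, of the substrain C57BL/6J by the study's methods, and each group had 4 libraries. Each library was made from a pool of lens FC of the right eyes of 4 mice, separated from the lens epithelium under a microscope. The spread between libraries is thus a spread between pools and not between single mice. CS-exposed mice had lived in a whole-body smoke chamber from around birth with smoke for 5 hours a day and 5 days a week over 3.5 months, and untreated Ct mice of the same age were kept in the animal facility. Pools were of male or of female mice, and the sex of each library was not given in the sources used here.

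Glutathione S-transferases join the tripeptide glutathione to reactive, electron-poor compounds, which are then exported from the cell and broken down further. The cytosolic enzymes fall into classes named alpha, mu, pi, omega, theta and zeta, the kappa enzyme sits in mitochondria and peroxisomes, and the microsomal enzymes are membrane proteins of a separate origin. The lens holds glutathione at high concentration, where it protects the crystallins against oxidation. Smoke carries aldehydes and other electrophiles that are substrates of these enzymes, and in many tissues several of their genes are induced through the factors NRF2 and AHR.

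The libraries held an estimated 18090000 to 23250000 fragments, and whole reads could be recovered from the FPKM of 99.6% of the 9794 genes tested. The 7 fiber markers with a single row, among them the crystallin Cryaa and the membrane channel Mip, summed to between 287273 and 302682 FPKM in a library in both groups. All 6 lens epithelium markers were also detected, and their sum was 58.1 to 115 FPKM in untreated Ct libraries against 47.1 to 75.3 FPKM in CS-exposed libraries. Npnt, the only one of the 6 with an unadjusted p value under 0.05, had a log2 fold change of -0.47. Of all genes tested, 4.83% had such a p value, 2.08% with a lower and 2.75% with a higher level in CS-exposed mice. Summed rod markers stood higher in all CS-exposed libraries than in any untreated Ct library. Sums of pigment epithelium and of blood and immune markers reached higher values in CS-exposed libraries, with ranges that overlapped between groups. The 10 rod markers summed to 11.1 to 29.9 FPKM in untreated Ct and 32.4 to 94.4 FPKM in CS-exposed libraries, with an unadjusted p value under 0.05 for 8 of the 9 tested, all higher. The 8 pigment epithelium markers summed to 0.904 to 2.31 and 1.83 to 12.9 FPKM (3 of 3 tested with an unadjusted p value under 0.05, all higher, and Best1 at 0 everywhere), and the 6 blood and immune markers to 0.284 to 2.01 and 0.586 to 21.004 FPKM (both tested genes higher, and 1 of them with an unadjusted p value under 0.05). The 3 tested pigment epithelium markers and both tested blood and immune markers reached 1.0 FPKM in CS-exposed mice only. So did the rod markers Sag, Pde6a, Pde6b, Prph2 and Nrl. For all of these, the higher level was fixed by the rule that chose genes for testing. The part of these cell types in the values of the glutathione S-transferases was not tested beyond the correlations given below for the epithelium. In pooled tissue, fewer cells of a type and less RNA per cell cannot be told apart.

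Gstp1, the pi class enzyme, was the most abundant of the 10 genes in every library. It was measured at 166, 140, 148 and 140 FPKM in untreated Ct libraries and at 131, 150, 146 and 152 FPKM in CS-exposed libraries. The sum over the 10 genes was 381 ± 37.7 FPKM (SD, n = 4) in untreated Ct and 353 ± 25.8 FPKM (SD, n = 4) after CS exposure. Gstp1 gave 34.9 to 45.0% of that sum in a library. Together with Gstm1 of the mu class and Gsto1 of the omega class it gave 74.0 to 77.8%. Only 248 genes of the whole table had a higher mean than Gstp1, whereas 10473 had a higher mean than Gstt1, the theta class gene at the lower end.

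**Figure D1:**
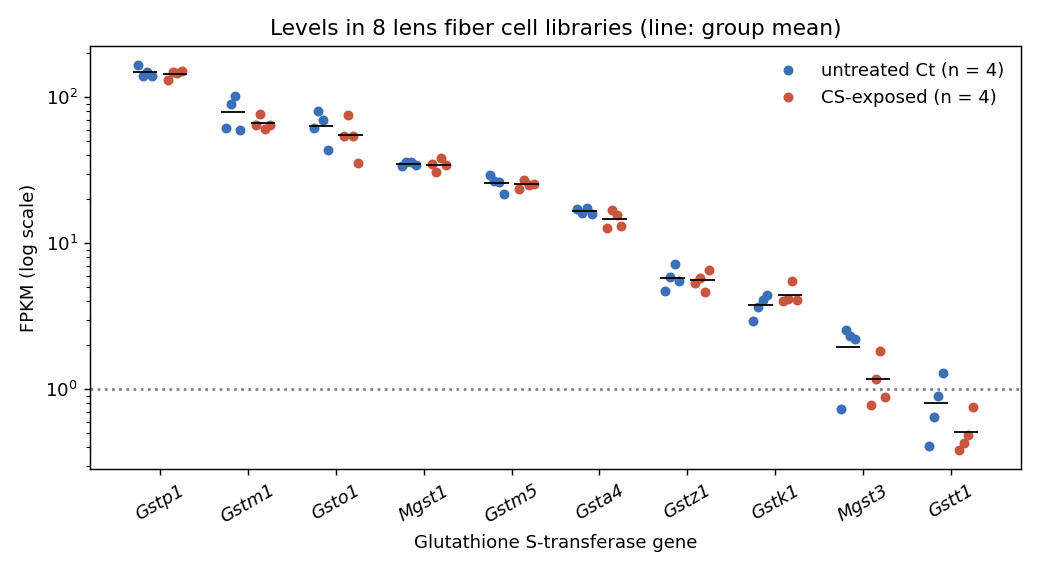
FPKM (log scale) of the 10 glutathione S-transferase genes in each of the 4 untreated Ct (blue) and 4 CS-exposed (red) lens FC libraries, ordered by mean. Black lines are group means and the dotted line marks the minimum of 1.0 FPKM. Within every gene the points of both groups overlap, and Gstp1 lies above the other 9 genes.

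The order of the levels was Gstp1, Gstm1, Gsto1, Mgst1, Gstm5, Gsta4, Gstz1, Gstk1, Mgst3 and Gstt1. Over all 8 libraries, Gstp1 did not overlap with Gstm1, with a ratio of means of 2.01. Mgst1, a microsomal enzyme that also reduces lipid peroxides, was above Gstm5 by 1.36 times without overlap, and Gstm5 was above Gsta4 by 1.65 times. A larger step of 2.74 times separated Gsta4, which conjugates the lipid peroxidation product 4-hydroxynonenal, from Gstz1. Gstz1 is the zeta enzyme of tyrosine breakdown, known also as maleylacetoacetate isomerase. Gstk1 was above Mgst3 by 2.64 times. Other neighbours overlapped in range, as Gstm1 was above Gsto1 in 7 of 8 libraries and Gstz1 above Gstk1 in 7 of 8, while Gsto1 exceeded Mgst1 and Mgst3 exceeded Gstt1 in all 8 although their ranges crossed.

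Sequence bears on how well the 2 most abundant classes can be measured. Gstp1 (GRCm38, chr19:4035407-4037985, minus strand) has a near copy beside it, Gstp2 (chr19:4040285-4046023, minus strand), and both are protein-coding genes of the pi class. Their coding sequences of 630 bases were 98.1% identical, with 12 differing bases and a longest identical run of 300 bases. Of the 150-base windows of annotated Gstp1 transcripts, 17.6% also occurred in Gstp2, and part of these occurred in the pseudogene Gstp-ps as well. Single reads of that length could not be told apart there. Gstm1 (chr3:108012255-108017973, minus strand) lies near Gstm2 (chr3:107981702-107986453, minus strand). Its coding sequence was 85.9% identical to that of Gstm2, with a longest identical run of 60 bases. The closest relative was Gstm3, at 89.4% and a run of 112 bases, which was above 0 in 1 library only (0.282 FPKM). Gstm1 transcripts shared no window of 150 bases with any other gene. The lines show the first 60 coding bases of the pi pair and coding bases 592 to 651 of the mu pair, from GENCODE transcripts of GRCm38, with the bases that differ within each pair in capitals, 6 in the first and 18 in the second.
Gstp1: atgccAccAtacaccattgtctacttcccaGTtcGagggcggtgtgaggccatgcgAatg
Gstp2: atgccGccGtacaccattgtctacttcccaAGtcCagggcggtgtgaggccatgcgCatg
Gstm1: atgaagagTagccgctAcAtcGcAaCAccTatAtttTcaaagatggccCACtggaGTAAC
Gstm2: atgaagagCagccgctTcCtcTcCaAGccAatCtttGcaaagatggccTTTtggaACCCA

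Among the 10 genes themselves, coding identity was highest between Gstm1 and Gstm5 at 69.6%, and its median over the 45 pairs was 46.1%. Reads shared with another gene were possible for 2 further members. Gstz1 (chr12:87147165-87164723, plus strand) shared 3.95% of its windows, mostly with Pomt2 on the other strand, and Gstm5 (chr3:107895821-107898686, plus strand) shared 1.98% with the antisense gene 4933431E20Rik. Whether the strand of reads was used in counting was not given in the sources used here. Gsta4 (chr9:78182774-78209349, plus strand), Gsto1 (chr19:47854970-47864790, plus strand), Gstt1 (chr10:75783813-75798584, minus strand), Gstk1 (chr6:42245935-42250447, plus strand), Mgst1 (chr6:138140316-138156755, plus strand) and Mgst3 (chr1:167371966-167393841, minus strand) shared no window.

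The study asked which transcripts of lens FC differ after CS exposure. In the comparison of CS-exposed with untreated Ct mice, none of the 9 glutathione S-transferase genes tested passed an adjusted p value of 0.05, against 0.0102% of all genes tested (limma on log2(FPKM + 0.1), Benjamini-Hochberg over all 9794 genes). At an unadjusted p value under 0.05 the count was also 0 of 9, where 4.83% of all genes tested had such a value. limma-voom on the recovered reads gave 0 of 9 by either threshold, where 4.94% of its genes had an unadjusted and 0.0205% an adjusted p value under 0.05. In none of the 10 genes were the ranges of the groups apart, and among all genes tested 3.08% had ranges that did not overlap. The estimate was below 0 for 8 of the 9 genes and above 0 for Gstk1. The median log2 fold change was -0.05 over the 9 genes and 0.0043 over all genes tested, of which 48.8% were below 0. Gstt1 was also lower in the CS-exposed mean.

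**Figure D2:**
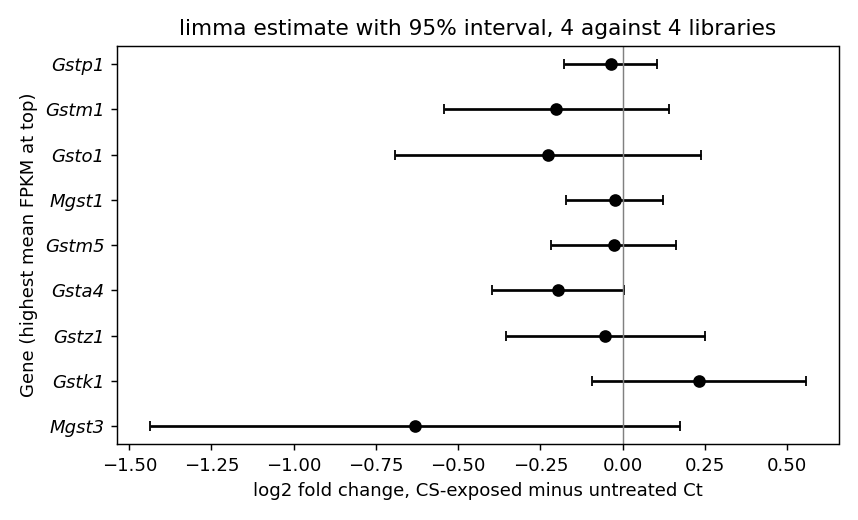
log2 fold change (CS-exposed minus untreated Ct, x axis) of the 9 tested glutathione S-transferase genes (y axis), as limma estimates (points) with 95% intervals (bars) from 4 against 4 libraries. All 9 intervals include 0, the narrowest being those of Gstp1 and Mgst1 and the widest that of Mgst3.

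Among the tested members, the intervals were narrowest for Gstp1, Mgst1 and Gstm5. For Gstp1, which is also a regulator of stress kinases, the group means were 149 ± 12.2 and 145 ± 9.60 FPKM (SD, n = 4) and the log2 fold change of -0.04 had a 95% interval from -0.18 to 0.11. Each value rested on 1915 to 2623 reads. Reads common to Gstp1 and Gstp2 may have been given to either gene or left out of both, and the sum of both genes was taken too. It was 166 ± 11.3 FPKM in untreated Ct and 165 ± 11.7 FPKM in CS-exposed mice (SD, n = 4, two-sided exact permutation test, p = 0.914). Reads left out of both genes would be missing from the sum as well. Mgst1 ranged from 33.96 to 36.0 FPKM in untreated Ct and from 30.7 to 38.2 FPKM in CS-exposed libraries, with a log2 fold change of -0.02 (95% interval, -0.17 to 0.12). Gstm5, a mu class gene known for its expression in brain and testis, ranged from 21.8 to 29.2 and from 23.5 to 27.3 FPKM, with a log2 fold change of -0.03 (95% interval, -0.22 to 0.16). For these genes no difference was detected, and a change within the intervals remains possible with 4 pools a group.

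Gsta4 had the smallest p value of the 9 genes. It was measured at 17.3, 16.1, 17.4 and 15.8 FPKM in untreated Ct and at 12.8, 16.8, 15.5 and 13.2 FPKM in CS-exposed libraries. Replicates 1, 3 and 4 of the CS-exposed mice were below all untreated Ct libraries, and replicate 2 lay within their range. The log2 fold change was -0.20 (SE 0.09, 95% interval, -0.40 to 0.0032), with an unadjusted p value of 0.0532 and an adjusted p value of 0.956 by limma. The exact permutation test over the 70 assignments of libraries gave p = 0.114, two-sided, where the smallest possible value is 0.0286. The unadjusted p value crossed 0.05 when the values were centred on the library median (0.0285), when they were quantile normalized (0.0273), with a minimum of 5 FPKM (0.0480), and when CS-exposed replicate 2 (0.0106, log2 fold change -0.27) or replicate 3 (0.0425, log2 fold change -0.23) was left out. The adjusted p value of Gsta4 was not under 0.05 in any of these settings.

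Gstm1 and Gsto1 had wide intervals in spite of deep counts. Gstm1, the main mu class enzyme of many mouse tissues, was at 61.6, 90.6, 103 and 60.2 FPKM in untreated Ct and at 65.0, 77.4, 61.0 and 64.2 FPKM in CS-exposed libraries. Replicates 2 and 3 of untreated Ct were the highest of the 8 libraries. The log2 fold change was -0.20 (95% interval, -0.54 to 0.14), and without untreated Ct replicate 3 it was -0.06. Gsto1, a thiol transferase that also reduces dehydroascorbate, was at 61.7, 80.0, 69.5 and 43.7 FPKM in untreated Ct and at 54.3, 75.5, 54.6 and 35.7 FPKM in CS-exposed libraries. Both groups spanned wide, overlapping ranges, from replicate 4 as the lowest to replicate 2 as the highest. The log2 fold change was -0.23 (95% interval, -0.69 to 0.24), and leaving out 1 library at a time moved it between -0.40 and -0.04.

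The spread of Gsto1 within groups was large for its level. Its coefficient of variation was 24.0% in untreated Ct and 29.5% in CS-exposed libraries, whereas counting alone would give 2.68%. The SD within groups on the log2 scale was larger than that of 99.6% of the 778 tested genes with a mean within 2-fold of its own, and the SD of Gstm1 was larger than that of 98.9% of 623 such genes. Gstp1 was at 84.2% and Mgst1 at 52.2% on the same measure.

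**Figure D3:**
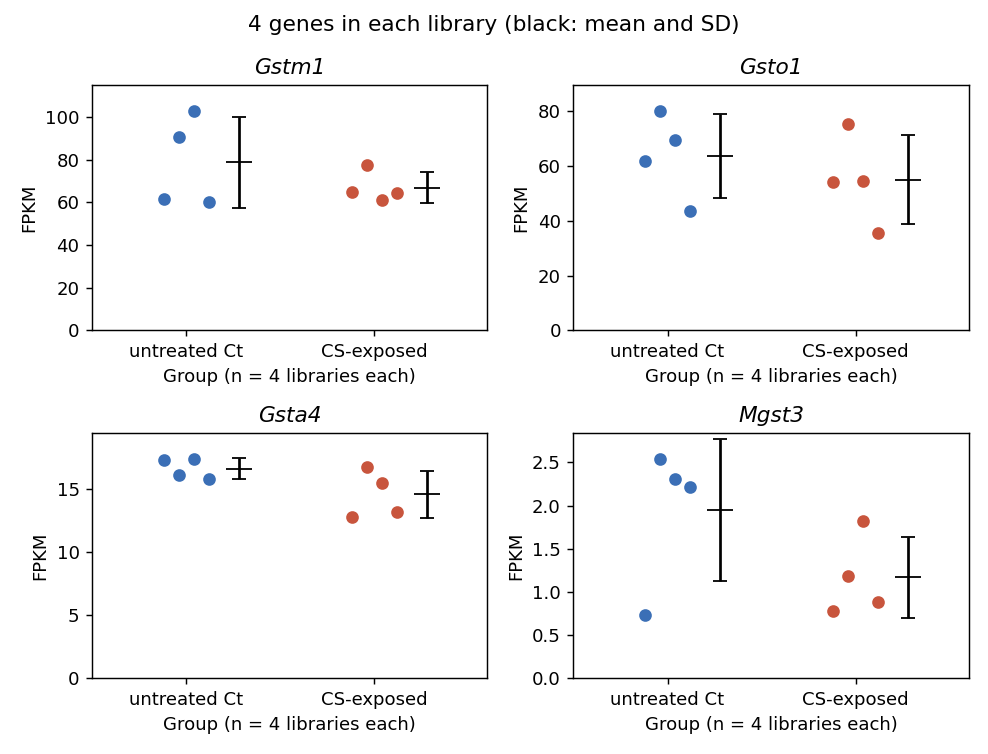
FPKM (y axis, from 0) of Gstm1, Gsto1, Gsta4 and Mgst3 in each of 4 untreated Ct (blue) and 4 CS-exposed (red) libraries, with mean and SD in black. The groups overlap in each of the 4 genes. Gsto1 is spread widely in both groups, whereas Gstm1 spans 60.2 to 103 FPKM in untreated Ct and 61.0 to 77.4 FPKM in CS-exposed libraries.

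Of the genes with lower levels, Mgst3 had the largest estimate. Mgst3 is a microsomal enzyme that joins glutathione to leukotriene A4 and reduces lipid hydroperoxides. It was at 0.734, 2.54, 2.31 and 2.22 FPKM in untreated Ct and at 0.778, 1.18, 1.82 and 0.885 FPKM in CS-exposed libraries, on 16 to 59 reads a value. Replicate 1 was the lowest library of untreated Ct and lay below all CS-exposed libraries, and the other 3 untreated Ct libraries lay above all CS-exposed ones. The log2 fold change of -0.63 had a 95% interval from -1.44 to 0.17 (unadjusted p = 0.112, adjusted p = 0.956, limma). Without untreated Ct replicate 1 it was -1.02, with an unadjusted p value of 0.0028 and an adjusted p value of 0.861, and without CS-exposed replicate 3 it was -0.85, with an unadjusted p value of 0.0460. The side of 0.05 on which the unadjusted p value fell thus changed with single libraries of either group.

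Gstk1 was the only gene with an estimate above 0. It was at 2.92, 3.65, 4.12 and 4.46 FPKM in untreated Ct and at 4.03, 4.14, 5.55 and 4.08 FPKM in CS-exposed libraries, and CS-exposed replicate 3 was the highest of all. The log2 fold change was 0.23 (95% interval, -0.09 to 0.56) and 0.12 without that library, which also had the highest sums of rod and pigment epithelium markers. Gstz1 ranged from 4.74 to 7.21 and from 4.62 to 6.52 FPKM, with a log2 fold change of -0.05 (95% interval, -0.36 to 0.25). Gstt1, which acts on small halogenated compounds, was at 0.410, 0.642, 0.895 and 1.30 FPKM in untreated Ct and at 0.386, 0.431, 0.485 and 0.753 FPKM in CS-exposed libraries, on 9 to 26 reads a value. With no minimum on the level, its log2 fold change was -0.51 (SE 0.36, unadjusted p = 0.186, adjusted p = 0.906, limma), and its groups overlapped.

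Correlations between members ranged widely. Over the 8 libraries, the median Pearson r of the 45 pairs of members was 0.04, and 2 pairs exceeded 0.7, which were Gstp1 with Gstm5 (r = 0.76) and Gstm1 with Gstz1 (r = 0.71). The lowest was Gstk1 with Gstm5 (r = -0.56). These values describe 8 points that share depth and dissection, and they carry no test. The tested genes most like Gstp1 over the 8 libraries were Fndc3b (r = 0.95), Agap3 (r = 0.94) and Pcgf3 (r = 0.94), and those most like Gsta4 were Acyp1 (r = 0.98), Pfdn6 (r = 0.97) and Kif2a (r = 0.97), out of 9794 genes.

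Members were set against the mean log2 level of the lens epithelium markers, since dissection can leave epithelium on the fibers. That level was 2.55, 2.75, 3.47 and 2.41 in untreated Ct and 2.30, 2.71, 2.89 and 2.29 in CS-exposed libraries, on the log2(FPKM + 0.1) scale. Gstm1 had the highest Pearson r of the 10 members (r = 0.75, exact permutation p = 0.0287, adjusted over 10 relations p = 0.287, Spearman's rho = 0.40, p = 0.327). Without untreated Ct replicate 3 and CS-exposed replicate 4, the libraries farthest from the median level, r was 0.36 over a narrower range of levels, so the relation as measured rests on those libraries. Over the 4 libraries of a group, r of Gstm1 was 0.88 in untreated Ct and 0.10 in CS-exposed mice. For Gsta4 r was 0.67 (exact permutation p = 0.0716, adjusted p = 0.303), with rho = 0.64, r = 0.54 without the 2 libraries, and r = 0.61 within untreated Ct and 0.87 within CS-exposed mice. Gsto1 had the highest Spearman's rho (rho = 0.71, exact permutation p = 0.0576), with r = 0.59. No relation of the 10 passed the adjustment.

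Within families, the mu neighbours Gstm1 and Gstm2 had r = 0.90 over the 8 libraries (exact permutation p = 0.0068, adjusted over 6 relations p = 0.0408), with Spearman's rho = 0.67 (p = 0.083, adjusted p = 0.249). Gstm2 was at 5.34, 10.3, 11.8 and 5.40 FPKM in untreated Ct and at 7.08, 6.63, 6.87 and 4.95 FPKM in CS-exposed libraries. Replicates 2 and 3 of untreated Ct were thus the highest for both genes, which share no window of 150 bases. Without these 2 libraries r was 0.36 over a narrower range of levels, which was not tested. The relation as measured thus rests on those libraries. Over the 4 libraries of a group r was 0.997 in untreated Ct and 0.12 in CS-exposed mice. For the pi neighbours Gstp1 and Gstp2 r was -0.0035 (exact permutation p = 0.994), with r = -0.60 within untreated Ct and 0.65 within CS-exposed mice. The ratio of Gstp1 to Gstp2 was 7.18 to 9.89 in untreated Ct and 6.47 to 8.42 in CS-exposed libraries.

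**Figure D4:**
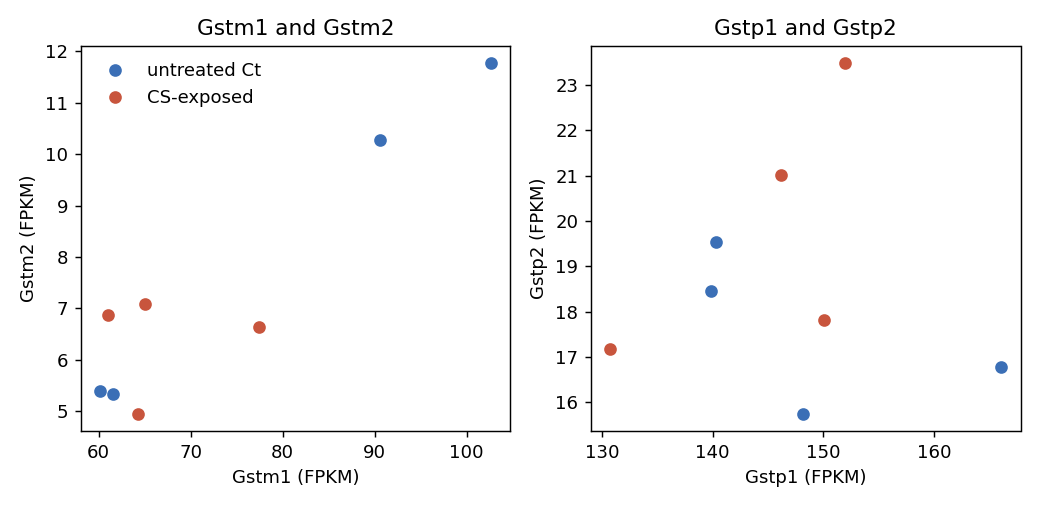
FPKM of Gstm1 (x axis) against Gstm2 (y axis) in the left panel and of Gstp1 against Gstp2 in the right panel, 1 point for each of 4 untreated Ct (blue) and 4 CS-exposed (red) libraries, on axes that do not start at 0. In the left panel, 2 untreated Ct libraries stand apart at the upper right and the other 6 show no clear trend. The right panel shows none over the 8 libraries.

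Of 19 other family genes listed, 7 reached 1.0 FPKM in at least 1 group, and an unadjusted p value under 0.05 was found for 0 of the 7, beside 4.83% of all genes tested (limma). Gstp2 was at 17.6 ± 1.69 FPKM in untreated Ct and 19.9 ± 2.93 FPKM in CS-exposed mice (SD, n = 4), with a log2 fold change of 0.17. The mu class genes Gstm7, Gstm2, Gstm4 and Gstm6 had log2 fold changes of -0.09, -0.28, -0.26 and -0.38. Gstm4 was measured at 3.92, 4.12, 4.13 and 4.05 FPKM in untreated Ct and at 3.86, 3.81, 2.65 and 3.30 FPKM in CS-exposed libraries, and these ranges did not overlap, as was so for 3.08% of all genes tested. Its unadjusted p value was 0.0602 by limma, and the exact permutation test gave 0.0286, the smallest value it allows. Gstcd and the omega class gene Gsto2 had log2 fold changes of -0.20 and -0.21. Among the genes below the minimum, Gsta3 of the alpha class was picked out after its values had been seen. It was at 0.108, 0.145, 0.169 and 0.139 FPKM in untreated Ct and at 0.475, 0.419, 0.314 and 0.430 FPKM in CS-exposed libraries, which did not overlap, as was so for 2.26% of the 21019 genes above 0 in some library. The ratio of means was 2.92 on 6 to 28 reads a value. With no minimum on the level, its log2 fold change was 1.08 (95% interval, 0.45 to 1.71), with an unadjusted p value of 0.0034 and an adjusted p value of 0.906 by limma, and the exact permutation test gave 0.0286. Gsta3 overlaps an antisense gene, Gm28836, from which its reads may not be told apart.

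The genes around the transferases were counted in lists. Among 9 genes for the supply of glutathione, 9 were tested and 0 had an unadjusted p value under 0.05, with a median log2 fold change of -0.02. Gclc and Gclm, the subunits of the rate-limiting ligase, were at 27.1 ± 2.04 and 24.2 ± 1.44 FPKM in untreated Ct and at 24.96 ± 1.76 and 24.5 ± 0.941 FPKM in CS-exposed mice (SD, n = 4). Gss, the synthetase of the next step, was at 97.0 ± 3.19 and 101 ± 3.41 FPKM. Of 14 genes that use glutathione against peroxides and aldehydes, 11 were tested and 1 had an unadjusted p value under 0.05, beside 4.83% of all genes tested. That was Gpx1, the cytosolic glutathione peroxidase, at 76.1 ± 3.16 FPKM in untreated Ct and 68.2 ± 7.82 FPKM in CS-exposed mice, with a log2 fold change of -0.16 (unadjusted p = 0.0456, adjusted p = 0.956, limma). The exact permutation test gave p = 0.143 for it. Of 21 genes for export and further processing of conjugates, 8 were tested and 0 had such a value, and of 4 genes of tyrosine breakdown, where Gstz1 acts, 1 was tested and did not.

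Of 11 regulators and targets of NRF2, the transcription factor that induces many transferase genes, 9 were tested and 1 had an unadjusted p value under 0.05, beside 4.83% of all genes tested. That was Hmox1, the enzyme that breaks down heme, at 294 ± 24.4 FPKM in untreated Ct and 341 ± 17.1 FPKM in CS-exposed mice (SD, n = 4). Its log2 fold change was 0.22 (SE 0.06, unadjusted p = 0.0040, adjusted p = 0.956, limma), and the exact permutation test gave 0.0286. Nfe2l2, the gene of NRF2, had a log2 fold change of 0.08 and Nqo1, a common target, of -0.07, with adjusted p values of 0.981 and 0.995 by limma. Of 6 regulators and targets of AHR, 2 were tested and 0 had an unadjusted p value under 0.05, and Cyp1a1, its best known target, was listed at 0 in every library. The median log2 fold change was 0.08 over the NRF2 list and 0.03 over the AHR list.

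The promoters were read for the core letters of the elements that NRF2 and AHR bind, since these factors are known to induce transferase genes. RefSeq promoters, from 250 bases before to 50 after the start site, were matched by symbol for 9 of the 10 members, all but Gsta4. The letters TGACNNNGC, searched on both strands, occurred for 2 of the 9, Gstm5 and Mgst1, where 13.99% of all genes with a promoter held them. The letters GCGTG, also on both strands, occurred for 4 of the 9, which were Gstm1, Gstm5, Gstp1 and Mgst3, where 35.2% of all genes held them. In Gstm5, 1 match of GCGTG overlapped that of TGACNNNGC. Only these exact letters were searched, and variants of them were not counted. An example is TGAGTCAGC in the Gstp1 promoter, which departs from TGACNNNGC by 1 letter. The 60 bases around the TGACNNNGC matches are shown on the plus strand of GRCm38.p6, with the match in capitals, at chr3:107895787-107895846 for Gstm5 and, with the match on the minus strand, at chr6:138140446-138140505 for Mgst1.
Gstm5: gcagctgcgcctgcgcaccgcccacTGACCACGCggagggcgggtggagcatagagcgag
Mgst1: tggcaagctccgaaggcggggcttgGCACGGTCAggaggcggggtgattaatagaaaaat

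These matches describe letters only, and binding was not measured. Gstm5 and Mgst1 had estimates of -0.03 and -0.02 on the log2 scale, and Gstp1, without a match of TGACNNNGC, had -0.04. A relation of matches to estimates was not tested.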

How the data were processed

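RNA of lens FC was sequenced in 8 libraries, 4 of CS-exposed and 4 of untreated Ct mice, grouped by the sample labels. The submitters' processing notes name STAR 2.5, an aligner, HTSeq 0.6.1, a read counter, and DESeq2, and the authors deposited FPKM per library. The log2 fold changes, p-values and adjusted p-values of the authors were deposited in the same table and not used, nor were the group means. FPKM removes gene length and depth, and does not resolve reads shared by near copies.

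Genes whose mean reached 1.0 FPKM in 1 group or both were compared on log2(FPKM + 0.1), which understates changes of low genes, with lmFit and eBayes (trend) of limma 3.58.1 in R 4.3.3, two-sided, with Benjamini-Hochberg adjustment over all 9794 genes. The fit was tested on simulated data. Single genes were also compared by an exact permutation test over 70 assignments. Whole reads were recovered from the steps of low FPKM, within a tolerance of 0.03 reads, for 9759 genes, and depth rests on annotated lengths (652 of 9054 genes gave the value used). A median of 313 reads stood behind a tested value. Replicate numbers were not used as pairs.

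The members and lists were chosen with earlier results of these data known. Named are the 10 members, other family genes with at least 1.0 FPKM, list genes with an unadjusted p value under 0.05, and the 3 genes most like the most abundant member and the member of smallest p value. Gclc, Gclm, Gss, Nfe2l2, Nqo1, Cyp1a1 and Gsta3 were added after their values were seen. Lim2, with several rows of 1 symbol, was left out. Alternatives were pseudocounts of 1 and 0.01, no minimum or a minimum of 5 FPKM, centring, quantile normalization, no or a robust trend, a replicate block and leaving out each library, and limma-voom on recovered reads, which was chosen after seeing the data. Coding identity and windows came from GENCODE M21 and promoters from RefSeq. An identity of proteins had been planned and was not computed, and coding identity was used in its place. Other computations used scipy 1.17.1, pandas 2.3.3 and numpy 2.4.6 under Python 3.11.15, with figures from matplotlib 3.10.9.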

Additional observations from a re-analysis of the deposited data

Results flagged for a closer look

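Gstk1 was measured at 5.55 FPKM in CS-exposed replicate 3, apart from the other 3 CS-exposed libraries at 4.03 to 4.14 FPKM. The gap to the nearest library was 0.922 of the whole range of the group, above Dixon's 95% critical value for 4 samples. In all, 20 groups of 4 libraries were examined over the 10 genes, among which chance gives about 1 such value. The same library had the highest sums of rod and pigment epithelium markers, and their part in the value was not tested.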

How the results depend on the processing

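No glutathione S-transferase gene passed an adjusted p value of 0.05 under any of the 18 settings, where the smallest was 0.610. Of 160 values of single members, 144 kept direction and side of an unadjusted p of 0.05, 9 crossed to below it and 7 turned sign. The count of members with an unadjusted p under 0.05 was 0 as reported and 1 with a minimum of 5 FPKM, with centring and with quantile normalization, each time Gsta4 (-0.20, -0.20 and -0.21), and 0 to 2 when 1 library was left out (Gsta4 without CS-exposed replicate 2 or 3, Mgst3 without CS-exposed replicate 3 or untreated Ct replicate 1). Without 1 library, log2 fold changes ranged from -0.27 to -0.14 for Gsta4, -1.02 to -0.47 for Mgst3, -0.40 to -0.04 for Gsto1, -0.32 to -0.06 for Gstm1 and 0.12 to 0.31 for Gstk1. Genes with estimates near 0 turned sign, namely Gstp1 (-0.065 to 0.018), Gstm5 (-0.11 to 0.031), Gstz1 (-0.15 to 0.053) and Mgst1 (-0.073 to 0.032), and the cause was not tested. Over all genes tested, 1 passed an adjusted p of 0.05, and 0 did with no minimum or no trend, 2 with limma-voom and 0 to 1 without 1 library (0 without untreated Ct replicate 4). At an unadjusted p under 0.05 there were 473 genes, 862 with no minimum, 226 with a minimum of 5 FPKM (4822 tested) and 418 to 525 without 1 library. Of these, 43.1% were lower in CS-exposed mice as reported, 34.5% with the minimum of 5 FPKM and 56.5% without CS-exposed replicate 3.

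Replicate numbers were tried as a block. Same-numbered libraries correlated at 0.012 to 0.161, below 0.1 for 2 of 4 numbers, and 6 of 8 libraries correlated best with their own number. The mean was 0.090 for same numbers and -0.030 for different numbers. Same-numbered libraries came from different mice, and no label pairs them or gives their sex, so they were not taken as pairs. With the replicate block 5 genes passed the adjusted threshold, and 2 members had an unadjusted p under 0.05. For Gsto1 the log2 fold change was -0.23, with an unadjusted p of 0.00441 and an adjusted p of 0.610 by limma. For Mgst3 it was -0.63, with an unadjusted p of 0.0309 and an adjusted p of 0.884 by limma.

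Reads were fewest for Gstt1 (9 to 26 a value) and Mgst3 (16 to 59). For Mgst3 counting alone would give a coefficient of variation of 18.2%, where 42.2% and 40.2% were found in untreated Ct and CS-exposed libraries. For Gsta4 and Mgst1 the values in untreated Ct, 4.98% and 2.87%, were under those of counting, 5.70% and 3.44%. Pooling hides the spread between mice, and sex could not be fitted.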
